A study of Mus musculus with 16 samples.

Results

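Lysozyme, 5 cathepsins, the cathepsin inhibitor cystatin C, a pair of lysosomal membrane proteins and apolipoprotein E were followed across 16 brain RNA libraries, 1 per mouse. These 10 genes (Lyz2, Ctsb, Ctsd, Ctsl, Ctss, Ctsz, Cst3, Cd68, Lamp1 and Apoe) are 10 of the 49671 genes counted in each library, and all 10 passed the filter on low counts. They were chosen by name with their difference between prenatal lipopolysaccharide (LPS) and prenatal saline in these same libraries known. That difference is therefore given as a description, and the calls printed for it are no support for it. All mice were C57BL/6 offspring described as male, and each group held 4 mice. The LPS-LPS mice were born to dams given LPS intraperitoneally on gestation day 16 and received LPS themselves on postnatal day 30. The LPS-saline mice had the prenatal LPS and a pubertal saline injection, the saline-LPS mice the prenatal saline and a pubertal LPS injection, and the saline-saline mice saline at both times. Brains were taken at postnatal day 32. The labels name each group by a pair of injections without saying which came first, and the dam's injection was read as the first of the pair. Litters are not given, so littermates may be among the mice of a group, and the spread measured is that between these mice.

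The lysosome breaks down what a cell takes up or recycles, and in the brain microglia, the resident macrophages, are its most active users for debris and synaptic material. Lyz2 encodes lysozyme M, an enzyme of myeloid cells that cuts bacterial cell walls. Cathepsins are lysosomal proteases. Ctsb, Ctsl and Ctss are cysteine proteases, Ctss trims the invariant chain of class II antigen presentation, Ctsz is a carboxypeptidase and Ctsd is an aspartic protease. Cst3 is cystatin C, the secreted inhibitor of cysteine cathepsins. Cd68 and Lamp1 are heavily glycosylated proteins of the lysosomal membrane, Cd68 mostly in macrophages and Lamp1 in nearly all cells. Apoe carries lipid between brain cells, is made chiefly by astrocytes, and is also made by microglia that respond to damage. LPS comes from the outer membrane of Gram-negative bacteria and activates Toll-like receptor 4.

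The promoters of Lyz2 and Ctss, with the largest prenatal differences, and of Ctsd and Lamp1, with a smaller one and none, are shown because they hold different short motifs. Each is the RefSeq sequence of GRCm38.p6 from 250 bases before to 50 bases after the gene's start, in the gene's own direction. The Lyz2 promoter lies at chr10:117282223-117282522 on the minus strand, that of Ctss at chr3:95526536-95526835 on the plus strand, that of Ctsd at chr7:142387778-142388077 on the minus strand and that of Lamp1 at chr8:13158911-13159210 on the plus strand. Capitals mark CACGTG, the core of the element through which TFEB drives lysosomal genes, and GGAAGT on either strand, letters found in sites of the myeloid factor PU.1.
Lyz2: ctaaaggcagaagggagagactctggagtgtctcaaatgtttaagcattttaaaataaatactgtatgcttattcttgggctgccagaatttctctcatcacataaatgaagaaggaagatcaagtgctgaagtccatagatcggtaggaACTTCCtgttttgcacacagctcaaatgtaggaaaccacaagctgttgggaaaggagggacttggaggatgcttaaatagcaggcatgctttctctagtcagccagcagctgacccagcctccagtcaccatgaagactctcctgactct
Ctss: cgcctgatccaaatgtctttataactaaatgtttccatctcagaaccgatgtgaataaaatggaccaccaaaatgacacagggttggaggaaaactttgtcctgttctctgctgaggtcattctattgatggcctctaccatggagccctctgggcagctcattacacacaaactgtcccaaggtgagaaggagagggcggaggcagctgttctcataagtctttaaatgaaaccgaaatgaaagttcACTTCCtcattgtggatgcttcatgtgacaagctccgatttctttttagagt
Ctsd: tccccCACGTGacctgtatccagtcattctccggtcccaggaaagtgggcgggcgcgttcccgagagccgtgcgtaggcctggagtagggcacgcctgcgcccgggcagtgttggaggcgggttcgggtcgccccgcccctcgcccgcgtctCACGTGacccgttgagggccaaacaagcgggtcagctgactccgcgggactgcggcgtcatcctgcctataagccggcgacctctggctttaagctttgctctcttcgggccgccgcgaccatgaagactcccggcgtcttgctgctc
Lamp1: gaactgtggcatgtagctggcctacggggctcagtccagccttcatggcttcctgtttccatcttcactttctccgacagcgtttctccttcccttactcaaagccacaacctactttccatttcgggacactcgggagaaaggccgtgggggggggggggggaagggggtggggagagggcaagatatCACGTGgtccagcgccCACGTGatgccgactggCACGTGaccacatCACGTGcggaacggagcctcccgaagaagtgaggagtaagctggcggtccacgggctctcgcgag
Both strands were searched. CACGTG occurred 4 times in the Lamp1 promoter, 2 times in that of Ctsd and 1 time in that of Ctsl, against 7.15% of all 32851 promoters of the table with at least 1. At least 3 occurrences were found in 0.0883% of promoters. GGAAGT occurred 1 time each in the promoters of Lyz2, Ctss and Cd68, against 23.8% of all promoters. Those of Ctsz, Cst3 and Apoe held neither. A match is a description of letters, and the motifs were picked with the sequences in view. The table holds 9 of the 10 genes.

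Per kilobase of exon the 10 genes spanned a wide range of levels. Over the 16 libraries Apoe averaged 933 ± 115 RPKM (CPM per kilobase of exon; SD, n = 16) and Cst3 735 ± 61.8, and the ranges of this pair overlapped. Ctsb followed at 100.4 ± 6.24, Lamp1 at 74.9 ± 4.38 and Ctsd at 48.2 ± 7.1 RPKM, each with a range that lay clear of its neighbour's above. Ctss at 33.7 ± 8.92 and Ctsz at 27.0 ± 3.82 RPKM overlapped, and the range of Ctss reached that of Ctsd. Ctsl at 12.4 ± 0.84, Lyz2 at 7.48 ± 2.57 and Cd68 at 5.38 ± 1.02 RPKM came last, and the range of Lyz2 overlapped those of both. Using the longest transcript in place of all exons gave the same order. Lyz2 rested on 165 to 505 reads per library, Cd68 on 141 to 336 and Apoe on 48833 to 82035, so counting error weighs most on Lyz2 and Cd68. Gene totals were 25729919 to 38571036 reads per library, and 1 read was worth at most 0.0389 CPM (counts scaled to library size).

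Some libraries stood apart, most plainly in genes other than these 10. Gabra6, which marks granule cells of the cerebellum, lay below 1 CPM in 8 libraries (1 LPS-LPS, 2 LPS-saline, 2 saline-LPS and 3 saline-saline) and at 2.5 to 70.4 CPM in the other 8. LPS-LPS replicate 3 had 502.7 CPM of Xist and 0 reads of the Y-linked Ddx3y, against its male label. The pituitary hormone gene Gh stood at 502.1 CPM in replicate 1 of LPS-LPS. Lyz1, the close copy beside Lyz2, had 0 to 4 reads per library, and reads shared by the copies were not measured, so Lyz2 is uncertain to that extent. Strand use in counting is not given in the sources used here, so the reads of exons that overlap another gene are uncertain, namely 774 bases of Ctsb shared with Fdft1 and 249 bases of Lamp1 shared with Grtp1 on the opposite strand. Of the Ctsd exons 808 bases (34.37%) are shared with Gm49369 on the same strand, which had 0 reads in all libraries. Reads in these bases may have been set aside as ambiguous whatever the strand setting. The level of Ctsd, also per kilobase, is uncertain to that extent. Of the Ctsl exons 1742 bases lie in the antisense gene Gm47123.

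Lyz2 and Ctss stood furthest apart between the prenatal injections. Lyz2 was at 14.8, 13.8, 14.1 and 12.9 CPM in the LPS-LPS libraries and at 11.8, 13.1, 12.2 and 10.7 CPM in the LPS-saline libraries. It was at 5.90, 6.19, 9.02 and 6.68 CPM in the saline-LPS libraries and at 6.73, 6.59, 6.12 and 6.74 CPM in the saline-saline libraries. Every library after prenatal LPS lay above every library after prenatal saline. The means were 12.9 ± 1.34 CPM after prenatal LPS and 6.75 ± 0.972 CPM after prenatal saline (SD, n = 8 each), a log2 difference of 0.94 ± 0.08 (SE) averaged over the pubertal injection. Saline-LPS replicate 3, at 9.02 CPM, was the highest after prenatal saline and still below the lowest after prenatal LPS.

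Ctss was at 58.6, 59.0, 63.5 and 49.7 CPM in LPS-LPS and at 62.3, 55.2, 55.0 and 47.6 CPM in LPS-saline. It was at 39.2, 27.0, 37.1 and 33.8 CPM in saline-LPS and at 35.6, 43.7, 32.2 and 32.5 CPM in saline-saline. The 8 libraries after prenatal LPS again lay above the 8 after prenatal saline, with means of 56.3 ± 5.64 CPM after prenatal LPS and 35.1 ± 5.04 CPM after prenatal saline (SD, n = 8 each) and a log2 difference of 0.68 ± 0.08. In bulk tissue, more cells of a type and more RNA per cell cannot be told apart.

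**Figure D1:**
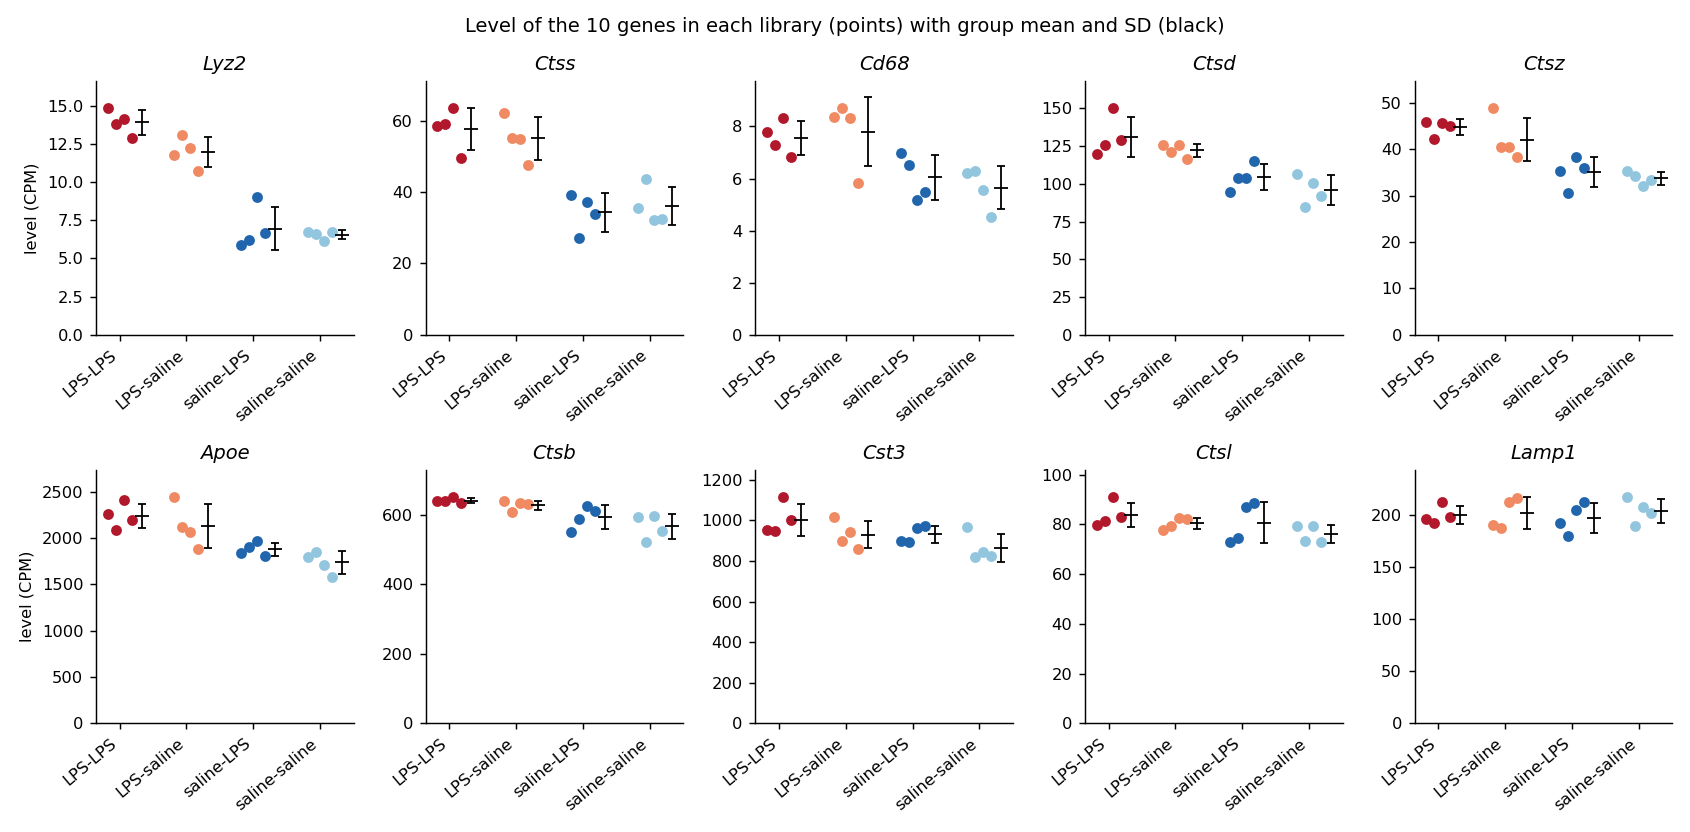
CPM of the 10 genes in each of the 16 libraries (points, 4 per group, in replicate order), with group mean and SD in black; the vertical axes start at 0. Lyz2 and Ctss show 2 separated levels by prenatal injection, 12.9 against 6.75 CPM and 56.3 against 35.1 CPM on average, while Lamp1 lies at 200.4 CPM after prenatal LPS and 200.2 CPM after prenatal saline.

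Ctsd, Ctsz and Cd68 differed less. Ctsd was at 119.7, 125.7, 150.0 and 129.1 CPM in LPS-LPS and at 125.8, 120.8, 125.5 and 116.7 CPM in LPS-saline, against 94.4, 104.1, 103.9 and 115.2 CPM in saline-LPS and 106.7, 84.4, 100.8 and 92.1 CPM in saline-saline. It was the third gene whose libraries did not overlap between the prenatal injections, though by a narrow margin (lowest 116.7 after prenatal LPS, highest 115.2 after prenatal saline), and its log2 difference was 0.34 ± 0.05. Of all tested genes 141, or 0.747%, had all 8 libraries after prenatal LPS above all 8 after prenatal saline, and 3 of the 10 genes did. Ctsz was at 46.0, 42.3, 45.8 and 45.1 CPM in LPS-LPS and at 48.9, 40.4, 40.6 and 38.4 CPM in LPS-saline, against 35.3, 30.6, 38.5 and 36.0 CPM in saline-LPS and 35.4, 34.2, 32.1 and 33.3 CPM in saline-saline. A single pair of libraries touched, LPS-saline replicate 4 and saline-LPS replicate 3, and the log2 difference was 0.34 ± 0.05. Cd68 was at 7.80, 7.27, 8.34 and 6.81 CPM in LPS-LPS and at 8.37, 8.70, 8.31 and 5.83 CPM in LPS-saline, against 6.996, 6.53, 5.16 and 5.49 CPM in saline-LPS and 6.22, 6.29, 5.57 and 4.53 CPM in saline-saline. The Cd68 groups overlapped, since LPS-saline replicate 4 and LPS-LPS replicate 4 lay below saline-LPS replicate 1, and the log2 difference was 0.40 ± 0.10.

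Apoe, by far the most abundant of the 10 by read count, was at 2262, 2088, 2407 and 2192 CPM in LPS-LPS and at 2443, 2124, 2067 and 1885 CPM in LPS-saline. It was at 1834, 1901, 1968 and 1808 CPM in saline-LPS and at 1799, 1853, 1712 and 1580 CPM in saline-saline. LPS-saline replicate 4 fell among the libraries after prenatal saline, and the other 7 after prenatal LPS lay above all of them. The log2 difference was 0.27 ± 0.05.

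The other 4 genes had the smallest differences. Ctsb ranged over 608.8 to 651.5 CPM after prenatal LPS and 522.9 to 626.1 CPM after prenatal saline, with a log2 difference of 0.13 ± 0.04. Its groups overlapped over all 16 libraries but not within either pubertal injection. There the lowest LPS-LPS library (634.9 CPM) lay above the highest saline-LPS library (626.1 CPM). The lowest LPS-saline library (608.8 CPM) lay above the highest saline-saline library (597.6 CPM). Within each pubertal injection 6 of the 10 genes were without overlap. The share of all tested genes was not measured for groups of 4, and nothing is read from this. Cst3, the inhibitor, ranged over 860.1 to 1114 CPM after prenatal LPS and 816.7 to 973.5 CPM after prenatal saline (log2 0.11 ± 0.05). Ctsl ranged over 77.9 to 91.0 CPM after prenatal LPS and 73.0 to 88.6 CPM after prenatal saline (log2 0.07 ± 0.05). Lamp1 ranged over 186.8 to 216.2 CPM after prenatal LPS and 179.2 to 216.9 CPM after prenatal saline, a log2 difference of 0.00 ± 0.05 with a 95% interval of -0.09 to 0.10. The 10 genes thus ran from no measured difference in Lamp1 to a ratio of means of 1.92 in Lyz2, and the log2 differences of the proteases from 0.07 for Ctsl to 0.68 for Ctss.

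In edgeR's quasi-likelihood fit, with p-values adjusted by Benjamini-Hochberg over 18875 genes, 7 of the 10 were called higher after prenatal LPS averaged over the pubertal injection (Lyz2, Ctss, Cd68, Ctsd, Ctsz, Apoe and Ctsb) and 0 lower, where a call is an adjusted p below 0.05. Of all tested genes 4.9% were called higher and 2.92% lower. Because the choice of the genes rested on this contrast, nothing is read from that count. Of the genes called, Ctsb (log2 0.13) lay nearest to the threshold, and of those not called, Cst3 (log2 0.11), which was called in 0 of 25 alternatives. Ctsb was called in only 4 of 16 fits that each left out 1 library. The count was 6 without LPS-LPS replicate 3, the library at odds with its male label, and 517 of all tested genes were then called higher. Among the 8 libraries under 1 CPM of Gabra6 only Lyz2 was called (log2 1.06, with Ctss at 0.74, Ctsz at 0.37, Ctsd at 0.34, Cd68 at 0.30, Apoe at 0.25 and Ctsb at 0.14). Among the other 8 libraries 6 were called (Lyz2 0.80, Ctss 0.68, Cd68 0.59, Ctsd 0.34, Apoe 0.30 and Ctsz 0.27).

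Within each pubertal injection Lyz2 had the largest difference of the 10 and Ctss came next. LPS-LPS against saline-LPS gave log2 differences of 1.00 ± 0.11 for Lyz2, 0.75 ± 0.12 for Ctss, 0.35 ± 0.08 for Ctsz, 0.33 ± 0.08 for Ctsd, 0.32 ± 0.14 for Cd68 and 0.25 ± 0.07 for Apoe. Lyz2, Ctss and Ctsz were called, 3 of 10, against 0.562% of all tested genes called higher. The genes were chosen on this difference too, so nothing is read from the count. A replicate block brought the count to 5, with Ctsd and Apoe in addition, in a fit that called 263 of all tested genes higher. The GC content and length correction brought it to 1 (46 of all tested genes called higher), or 2 with the block (83 of all tested genes called higher). Without LPS-LPS replicate 3 the calls were 2, Lyz2 and Ctss, and 22 of all tested genes were called higher. Among the libraries under 1 CPM of Gabra6, where LPS-LPS is 1 library assumed to vary like the rest, 1 was called, and among the others 4.

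LPS-saline against saline-saline gave 0.87 ± 0.11 for Lyz2, 0.61 ± 0.12 for Ctss, 0.47 ± 0.13 for Cd68, 0.35 ± 0.08 for Ctsd, 0.32 ± 0.08 for Ctsz and 0.29 ± 0.07 for Apoe. Lyz2 and Ctss were called, 2 of 10, against 0.148% of all tested genes called higher, a count from which, again, nothing is read. With the replicate block 6 were called, in a fit that called 284 of all tested genes higher. With the GC content and length correction 1 was called, in a fit that called 16 of all tested genes higher. Single libraries moved this count. It was 6 without LPS-saline replicate 4 (95 of all tested genes called higher) and 5 without saline-LPS replicate 1 (247 of all tested genes called higher). It was 1 without any of saline-saline replicates 1, 3 and 4, LPS-saline replicates 1, 2 and 3, saline-LPS replicate 4 and LPS-LPS replicates 1 and 2. Among the libraries under 1 CPM of Gabra6 1 was called, and among the others, where saline-saline is 1 library assumed to vary like the rest, 0.

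**Figure D2:**
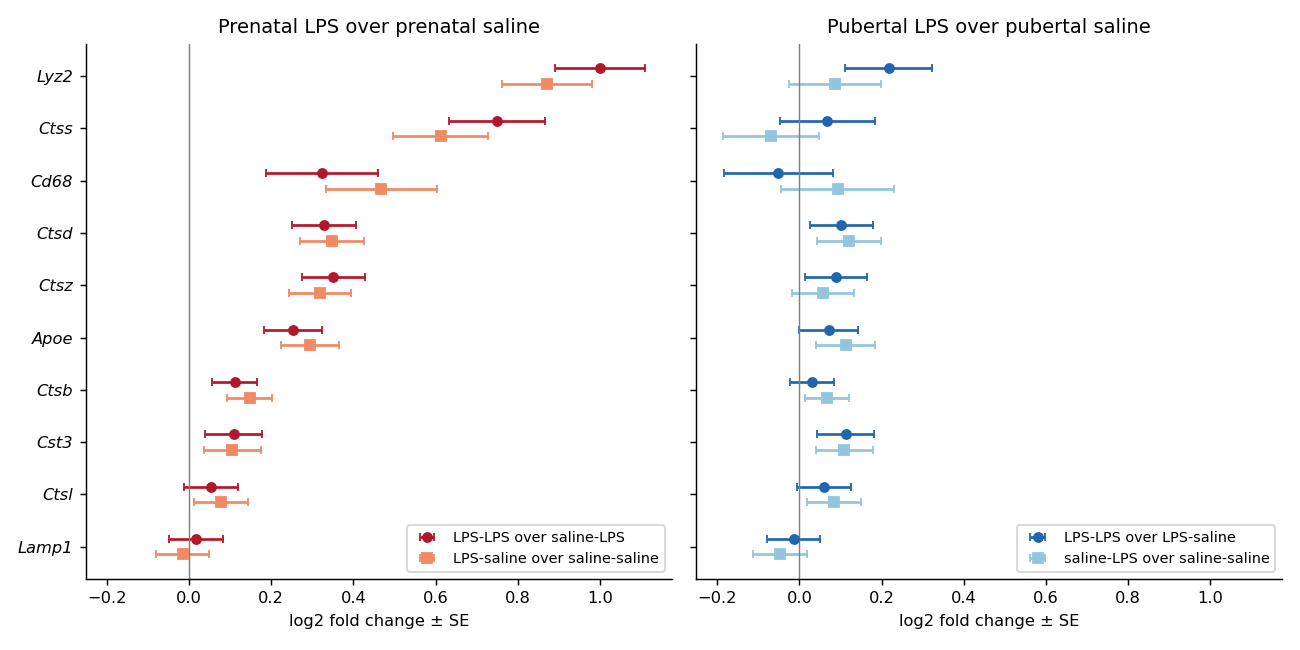
Log2 fold change with SE of the 10 genes (rows), on the left for prenatal LPS over prenatal saline within each pubertal injection, on the right for pubertal LPS over pubertal saline within each prenatal injection. On the left Lyz2 lies at 1.00 and 0.87 and Lamp1 at 0.02 and -0.02; on the right all 10 genes lie between -0.07 and 0.22.

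Part of this pattern ran along with gene length. Over all 18826 tested genes with a known length, the Spearman correlation of the averaged prenatal log2 difference with exonic length was -0.27, a description across genes, which are not replicates. The trend was not particular to the prenatal injection. For the averaged pubertal log2 difference the correlation was -0.23. It was -0.17 for saline-LPS against saline-saline and -0.18 for LPS-LPS against LPS-saline. Genes as short as Lyz2 (1316 exonic bases) had a median of 0.09, and genes as long as Ctsb (6051 bases) had -0.03. Lyz2 exceeded its length class by 0.85, Ctss by 0.60, Cd68 by 0.31, Ctsd by 0.28, Ctsz by 0.25 and Apoe by 0.21. Cst3 exceeded genes of its length by 0.02 and Lamp1 lay 0.05 under them, its difference from them being -0.05. After a correction of each library for GC content and length, Lyz2 was at 0.89, Ctss at 0.63, Cd68 at 0.32, Ctsd at 0.25, Ctsz at 0.22, Ctsb at 0.17, Apoe at 0.15 and Cst3 at -0.01. Then 6 were called, without Cd68, in a fit that called 396 of all tested genes higher. When the replicate block was added 8 were called, with Cd68 and Ctsl, and 636 of all tested genes were called higher.

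**Figure D3:**
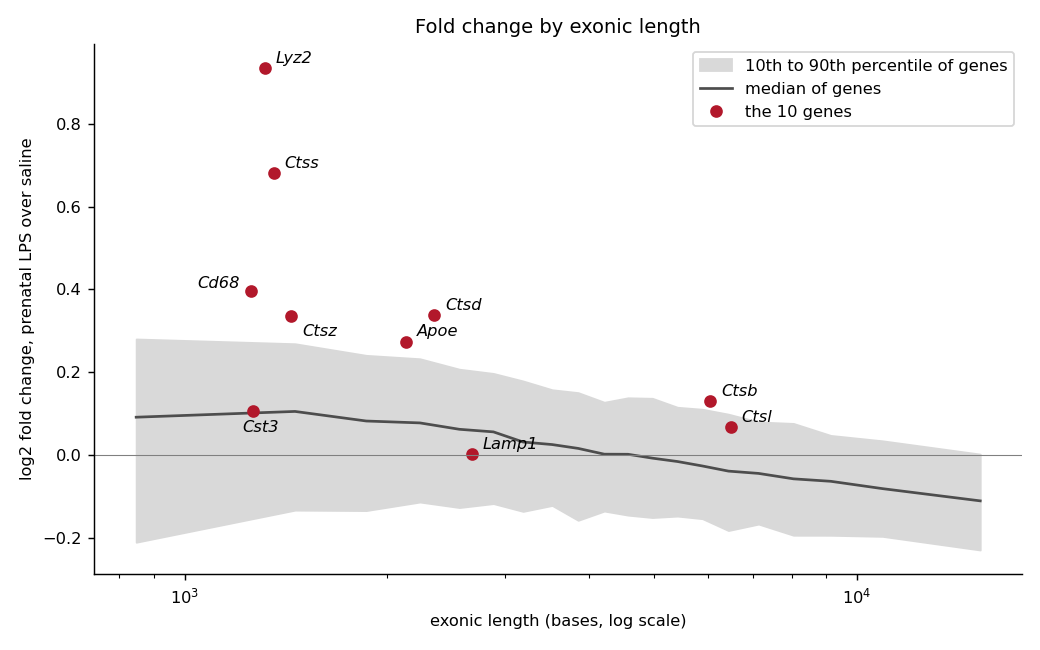
Log2 fold change of prenatal LPS over prenatal saline, averaged over the pubertal injection (vertical axis), against exonic length on a log scale, with the median (line) and the 10th to 90th percentile (grey) of 15201 genes at 1 CPM or more in 20 length classes. Lyz2 (0.94) and Ctss (0.68) lie far above the grey band, Cst3 (0.11) and Lamp1 (0.00) inside it.

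Other lysosomal genes were examined in the averaged prenatal comparison, in which 4.9% of all tested genes were called higher and 2.92% lower. A list of other cathepsins, which also holds the legumain gene Lgmn, had 8 tested genes. Of these, Ctsh (0.30 ± 0.07), Ctsc (0.28 ± 0.08) and Ctsa (0.15 ± 0.04) were called higher and 0 lower. The list's median was 0.13, beside 0.30 for the 10 genes and -0.01 for all tested genes. Of 35 further lysosomal hydrolases and their cofactors 4 rose and 1 fell, with a median of 0.08. Those that rose were Grn, the progranulin gene (0.27 ± 0.05), Pla2g15, a phospholipase (0.21 ± 0.04), Hexa, a subunit of the ganglioside-splitting hexosaminidase (0.19 ± 0.04), and Dnase2a, an acid DNase (0.35 ± 0.09). Ids, iduronate sulfatase, fell by 0.12. Of 22 lysosomal membrane genes 1 rose, Laptm5, which is expressed in blood-derived cells and microglia (0.30 ± 0.08), and the median was -0.01. Of 18 subunits of the proton pump that acidifies the lysosome 2 rose, Atp6v0b (0.16 ± 0.04) and Atp6v1f (0.18 ± 0.05), with a median of 0.07. Of 12 genes of lysosomal transcription and sorting, Gga1 rose (0.14 ± 0.04) and Gnptab, which makes the mannose-6-phosphate tag, fell by 0.16, and the median was -0.02. After the GC content and length correction the pump subunits had 0 calls. Of 3 other cystatins Cst6 rose (0.27 ± 0.07), and of 16 other genes of lipoprotein and lipid handling Apod rose (0.25 ± 0.06).

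Lists of microglial genes were examined in the same comparison, with the same 4.9% called higher over all tested genes. Of 10 genes used as a microglial index (P2ry12, Tmem119, Cx3cr1 and others) 0 were called in the averaged prenatal comparison, with a median of 0.03, and 1 was called higher with the replicate block. Their summed level was 199 to 247 CPM after prenatal LPS (median 225.9) and 178 to 271 CPM after prenatal saline (median 193.3). The highest sums after prenatal saline were those of saline-LPS replicate 1 (271.2 CPM) and saline-saline replicate 2 (266.2 CPM). Whether the sums differ between the prenatal injections was not tested. Of 16 homeostatic genes Aif1, a calcium-binding protein of microglia, rose (0.42 ± 0.10). Of 15 genes of disease-associated microglia Trem2, the lipid receptor (0.51 ± 0.07), its adaptor Tyrobp (0.50 ± 0.07) and Cd52, a surface glycoprotein (0.83 ± 0.18, at a mean of 1.498 CPM), rose, and the list's median was 0.02. Set against the mean log2 level of the 10 index genes in the same library, Lyz2 stood at -0.21 ± 0.04 in LPS-LPS and -0.38 ± 0.12 in LPS-saline, against -1.13 ± 0.38 in saline-LPS and -1.20 ± 0.24 in saline-saline. Ctss stood at 1.83 ± 0.10 in LPS-LPS and 1.82 ± 0.08 in LPS-saline, against 1.17 ± 0.13 in saline-LPS and 1.24 ± 0.05 in saline-saline. For both genes the libraries of the prenatal injections did not overlap on this scale, and for Apoe, Ctsd, Ctsz and Cd68 they did. The share of all tested genes without overlap on this scale was not measured. Because the genes were chosen on the prenatal difference, nothing is read from this.

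Markers of other cells were looked at beside these values, and their part in the differences was not tested. The summed level of 12 neutrophil genes was 3.62 to 8.88 CPM after prenatal LPS and 3.15 to 7.04 CPM after prenatal saline, with 0 of 6 tested genes called and a median log2 difference of 0.47. Ly6g, a defining neutrophil gene, had 10 reads in the 8 libraries after prenatal LPS and 3 in the 8 after prenatal saline. Camp, Mpo, Mmp8 and Mmp9 had fewer reads after prenatal LPS, and the rest of the neutrophil list had more. The sum of 10 monocyte genes was 94.2 to 128 CPM after prenatal LPS and 96.3 to 137 CPM after prenatal saline, most of it Fn1 and Vcan. Ccr2, a defining receptor, averaged 0.577 CPM after prenatal LPS and 0.315 CPM after prenatal saline. Vcan, Ms4a6c and Ccl9 averaged lower after prenatal LPS, and the rest of the monocyte list higher. The sum of 12 border macrophage genes was 38.9 to 52.3 CPM after prenatal LPS and 38.5 to 58.2 CPM after prenatal saline, with 0 of 11 tested called and a median of 0.15. Of 12 astrocyte genes Slc1a2 fell by 0.22 and Gjb6 by 0.19. Astrocyte sums were 4040 to 4467 CPM after prenatal LPS and 4185 to 5246 CPM after prenatal saline. Of 8 oligodendrocyte genes Cnp fell by 0.18, Ermn by 0.44 and Cldn11 by 0.19, of 8 neuronal genes Tubb3 (0.15) and Slc17a7 (0.17) rose, and of 8 meningeal fibroblast genes Dcn (0.23) and Ptgds (0.29) rose. The lists for endothelium and pericytes, choroid plexus, cerebellar granule cells, pituitary and monocytes had 0 calls.

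**Figure D4:**
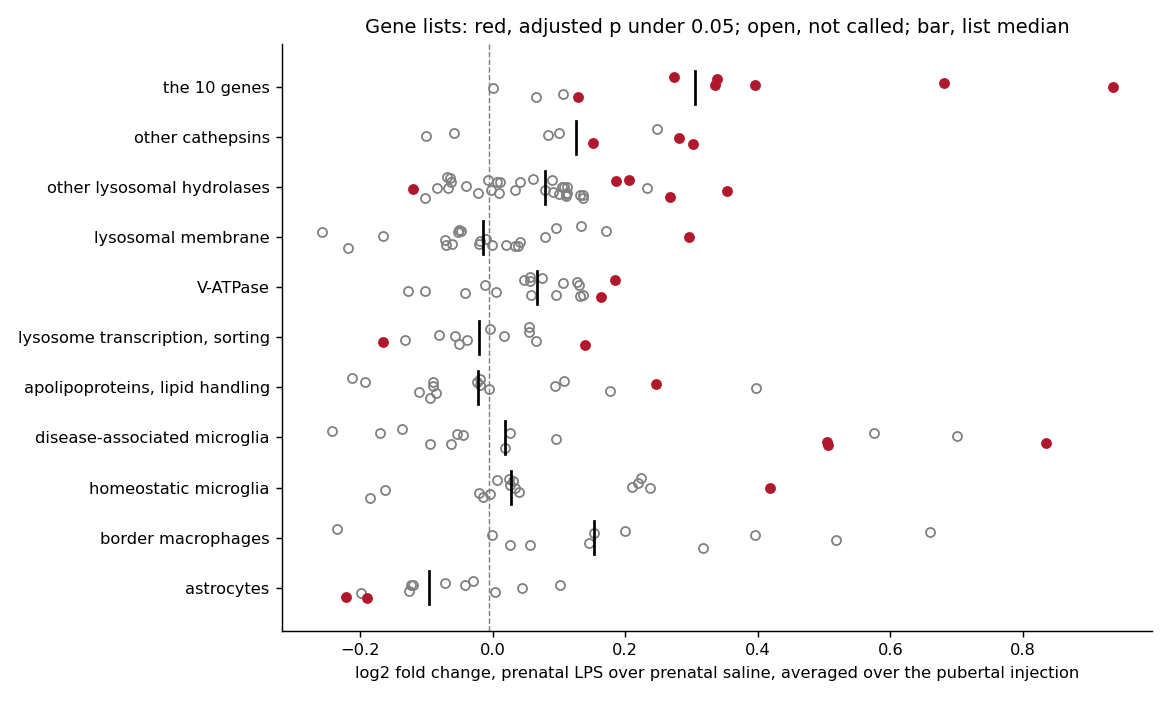
Log2 fold change of prenatal LPS over prenatal saline, averaged over the pubertal injection, for each tested gene of 11 lists (rows); red points were called, open points were not, black bars are list medians and the dashed line is the median of all tested genes (-0.01). The 10 genes have a median of 0.30, the list of other cathepsins with Lgmn 0.13 and the lysosomal membrane list -0.01.

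The pubertal injection, on which the choice of genes did not rest, left no call among the 10. Averaged over the prenatal injection, 0 of 10 were called by edgeR and 0 by DESeq2, against 0% of all tested genes by edgeR (947 genes had an unadjusted p below 0.05). Lyz2 averaged 10.4 ± 3.87 CPM after pubertal LPS and 9.25 ± 2.96 CPM after pubertal saline, spreads that include the prenatal difference (SD, n = 8 each), and its log2 difference was 0.15 ± 0.08 with a 95% interval of -0.01 to 0.31 (edgeR adjusted p = 0.951). Cst3 was the only one of the 10 with an unadjusted p below 0.05, at 966.8 ± 70.3 CPM after pubertal LPS and 895.1 ± 72.3 CPM after pubertal saline (log2 0.11 ± 0.05, edgeR adjusted p = 0.951). Ctss had a log2 difference of -0.00 ± 0.08 (95% interval -0.17 to 0.17), Cd68 0.02 ± 0.10 (-0.18 to 0.22), Ctsd 0.11 ± 0.05 (-0.00 to 0.23) and Apoe 0.09 ± 0.05 (-0.01 to 0.20). The median of the 10 was 0.07, beside 0.00 for all tested genes. Among libraries under 1 CPM of Gabra6 the 10 log2 differences ran from -0.08 to 0.03, and among the others from -0.01 for Lamp1 to 0.26 for Lyz2, where Apoe had the lowest adjusted p (log2 0.24, edgeR adjusted p = 0.0772, against a range up to 1 over all alternatives).

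Within each prenatal injection the counts were the same. LPS-LPS against LPS-saline had 0 of 10 called by edgeR and 0 by DESeq2, against 0% of all tested genes by edgeR and 9 genes by DESeq2 (756 at an unadjusted p below 0.05, of which 0 among the 10), and the largest log2 difference was that of Lyz2, 0.22 ± 0.11 (13.9 ± 0.816 CPM in LPS-LPS and 11.95 ± 0.973 CPM in LPS-saline). Saline-LPS against saline-saline had 0 of 10 called by edgeR and 0 by DESeq2, against 0% of all tested genes by edgeR (535 at an unadjusted p below 0.05, 0 among the 10), with Ctsd highest at 0.12 ± 0.08 and Ctss lowest at -0.07 ± 0.12.

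The interaction asks whether the pubertal injection changed the genes differently after prenatal LPS and after prenatal saline. By edgeR 0 of 10 were called, against 0% of all tested genes, and 402 genes had an unadjusted p below 0.05, 0 of them among the 10. DESeq2 called 1 gene, none of the 10. The interaction was 0.13 ± 0.16 for Lyz2 (95% interval -0.19 to 0.45), 0.14 ± 0.16 for Ctss (-0.21 to 0.48) and -0.14 ± 0.19 for Cd68 (-0.54 to 0.25), with an edgeR adjusted p of 1.00 for each.

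Mouse-to-mouse variation inside the groups was examined next, since deviations from the group means hold no prenatal or pubertal difference. Each gene's deviations were related to 3 measures of the same 16 libraries, namely the mean deviation of the 10 microglial index genes, that of 12 astrocyte genes, and the slope of a library's deviations on gene length. Of these 30 relations 3 passed a permutation test within groups with Benjamini-Hochberg adjustment, by Pearson's r and by Spearman's rho alike. That test treats the libraries of a group as exchangeable and leaves out the replicate number, which linked libraries across groups. With the mean of each replicate number also removed, 0 of the 30 passed (lowest adjusted p = 0.14 by permutation), though r kept its sign and size in all 3. Ctss followed the microglial index (r = 0.86, rho = 0.90, permutation p = 8e-05 for both, adjusted p = 0.0024 for both). With replicate means removed r was 0.84 (permutation p = 0.0187, adjusted p = 0.14). Without the 2 libraries farthest from the index median r was 0.83. It was 0.92 among the 8 libraries under 1 CPM of Gabra6, 0.70 among the other 8, 0.86 without LPS-LPS replicate 3, and 0.91 after the GC content and length correction. Lyz2 had r = -0.02 and rho = 0.20 with the same index (permutation p = 0.946 and 0.490, adjusted p = 0.946 and 0.773), and r was 0.35 without the 2 farthest libraries. Whether the relations of Ctss and Lyz2 differ was not tested. For the other 8 genes r with the microglial index ran from -0.59 for Ctsb to 0.57 for Cd68, and none passed the adjustment. Although the 10 are grouped as microglial lysosome genes, covariation with microglial markers thus passed its test for Ctss alone, and not once replicate means were removed, and several of the 10, Apoe and Cst3 among them, are known to be made by other brain cells too.

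Cst3 and Apoe were lower where longer genes were relatively higher. Both are short, at length percentiles 10.7 and 23.1 of the tested genes, and short genes lean to a negative r by the way the index is built. For Cst3 r was -0.72 and rho -0.72 (permutation p = 0.00152 and 0.00454, adjusted p = 0.0228 and 0.0454). For Apoe r was -0.66 and rho -0.74 (permutation p = 0.00462 and 0.00401, adjusted p = 0.0462 and 0.0454). With replicate means removed r was -0.75 for Cst3 (permutation p = 0.00805) and -0.69 for Apoe (permutation p = 0.0147), with an adjusted p of 0.14 for both. With the genes' values corrected for GC content and length, and the index not, r was -0.59 for Cst3 and -0.73 for Apoe. Without the 2 farthest libraries r was -0.83 for Cst3 and -0.76 for Apoe. Among the libraries under 1 CPM of Gabra6 it was -0.71 and -0.65, and among the others -0.74 and -0.86. With the astrocyte index the highest r was that of Ctss, 0.71 (adjusted p = 0.0659), and of Ctsz, 0.71 (adjusted p = 0.0554), neither of which passed. The microglial and astrocyte indices were themselves related (r = 0.74 over the 16 libraries).

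**Figure D5:**
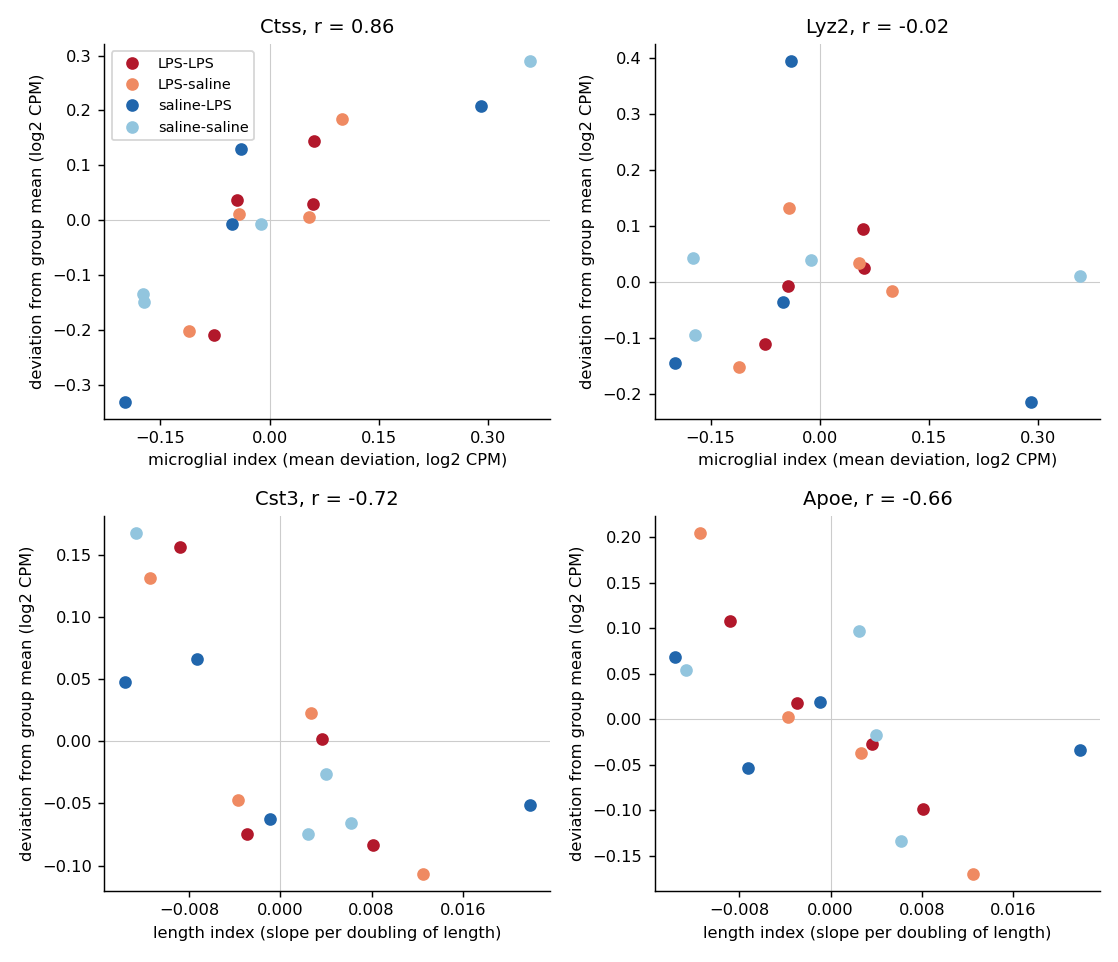
Deviation from the group mean (log2 CPM) of Ctss and Lyz2 against the microglial index, and of Cst3 and Apoe against the length index, 1 point per library, coloured by group. Ctss rises with the index (r = 0.86), Lyz2 shows no such line (r = -0.02), and Cst3 (r = -0.72) and Apoe (r = -0.66) fall with the length index.

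The genes nearest to each of the 10 in the same deviations, among 11947 genes at 5 CPM or more and given as a description over 16 libraries, differed by gene. Those nearest to Ctss were Mpeg1 (r = 0.93), Ctsc (0.91) and C1qc (0.87). Those nearest to Lyz2 were P2rx6 (0.85), Vamp8 (0.85) and Ngdn (0.84), and those nearest to Cd68 Mgll (0.92), Rhbdd3 (0.90) and Arvcf (0.88). Apoe was nearest to Ltbr (0.89), Trem2 (0.88) and Rab3il1 (0.88), and Ctsz to Aldh1l1 (0.84), Gfap (0.83) and Hsd17b11 (0.83). Ctsd was nearest to Oxt (0.92), Rpl10 (0.91) and Fth1 (0.90), Ctsb to Prpf19 (0.93), Sfrp1 (0.93) and Pebp1 (0.92), and Ctsl to Pdcd6 (0.93) and Psmb1 (0.92). Cst3 was nearest to Bak1 (0.86), Cyb561d2 (0.86) and Tmed3 (0.85), and Lamp1 to Ptges3 (0.93), Trmt2b (0.92) and Atp5g3 (0.92). Among the 10 themselves the closest pairs were Ctsd with Cst3 (r = 0.81) and Ctsl with Lamp1 (0.80), and the most opposed pair was Cd68 with Lamp1 (-0.41).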

How the data were processed

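Brain RNA of 16 mice (4 groups of 4) was counted per gene. The authors aligned reads with STAR 2.5.2b to GRCm38 and counted them with HTSeq 0.11.2, per the submitters' processing notes, and deposited raw read counts for 49671 Ensembl genes plus 5 special entries, which were left out of totals and tests (no feature 8.37 to 11% and ambiguous 5.11 to 5.48% of counts). Neither the strand setting nor the annotation release is stated in the labels or notes. Symbols, exonic lengths and coordinates came from GENCODE M21, which matched 49412 of the genes. The 10 genes, the other gene lists and the promoter motifs were chosen with earlier results of these data known. Genes passing edgeR's filterByExpr (18875) were fitted across all 16 libraries and all genes with edgeR 4.0.16 (R 4.3.3, TMM, robust quasi-likelihood, 4 group means, Benjamini-Hochberg, threshold 0.05). DESeq2 1.42.0 was an alternative. CPM used gene totals scaled by TMM. Log2 CPM for deviations had a prior count of 2. The GC content and length correction used splines of 4 degrees of freedom per library. Correlations used 100000 permutations within groups. Steps were tested on simulated data.

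Over 11949 genes the deviations of same-numbered libraries had r = 0.158 to 0.703 in LPS-saline with saline-saline and 0.374 to 0.469 in LPS-LPS with saline-LPS. It was 0.212 to 0.476 in LPS-LPS with LPS-saline and 0.316 to 0.569 in LPS-saline with saline-LPS. It was -0.00543 to 0.482 in LPS-LPS with saline-saline and 0.00478 to 0.45 in saline-LPS with saline-saline. The replicate number was used in alternative runs only, and the main fit, with its estimates and calls, left it out. The labels do not say what the number stands for. Named genes are the 10, the 3 nearest to each by Pearson's r (predicted genes left out, and 1 gene not reported here), up to 4 called genes per list by smallest p, and Lyz1, Gabra6, Xist, Ddx3y and Gh. Other genes are named after their values were seen. Promoters were credited to RefSeq, build GRCm38.p6.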

Additional observations from a re-analysis of the deposited data

Results flagged for a closer look

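LPS-saline replicate 4 lay far below the other LPS-saline libraries in Cd68, at 5.83 CPM against 8.31 to 8.70 CPM, a gap of 0.866 of the group's range where 0.829 is the critical value for 4 samples. It was the only one of 40 gene and group combinations to pass, and chance passes about 1 in 20. The same library was also the lowest LPS-saline library in Lyz2, Ctss, Ctsd, Ctsz, Cst3 and Apoe. It had the most Gabra6 of its group (52.6 CPM). In each other group too the library with the most Gabra6 had the lowest Cd68. These were saline-saline replicate 4 (Cd68 4.53 CPM), saline-LPS replicate 3 (5.16 CPM) and LPS-LPS replicate 4 (6.81 CPM). A relation of Cd68 with Gabra6 was not tested.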

How the results depend on the processing

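Averaged over the pubertal injection, the number of the 10 genes called higher after prenatal LPS was 7, and 1 among libraries under 1 CPM of Gabra6. It was 6 to 7 when leaving out each library in turn. For LPS-saline against saline-saline it was 2, and became 6 with the replicate block, with Gabra6 as a covariate and with DESeq2, 5 with no filter on low counts, 1 with the GC content and length correction, with or without the replicate block, and 1 under and 0 at or above 1 CPM of Gabra6. Leaving out single libraries gave 1 to 6. For LPS-LPS against saline-LPS it was 3, and became 5 with the replicate block, with no filter, with Gabra6 as a covariate and with DESeq2, and 1 with the GC content and length correction and under 1 CPM of Gabra6. Leaving out single libraries gave 2 to 4. Over all genes, the prenatal comparison had 1476 calls, and 2495 with the replicate block, 2756 with the Gabra6 covariate, 2268 with DESeq2, 667 with the GC content and length correction and 13 under and 742 at or above 1 CPM of Gabra6. It was 931 without saline-saline replicate 2, 846 without saline-saline replicate 4, 700 without LPS-saline replicate 1, 917 without LPS-LPS replicate 1 and 736 without LPS-LPS replicate 3. LPS-saline against saline-saline had 34, 2 to 515 over the alternatives with all libraries or split by Gabra6 and 7 to 391 leaving out single libraries. LPS-LPS against saline-LPS had 115, 5 to 856 and 22 to 126. The cause of these shifts was not tested, except that the 8-library fits hold fewer samples. The replicate block left the averaged count of the 10 at 7 and, added to the GC content and length correction, raised it to 8 where it was 6, and that of LPS-LPS against saline-LPS to 2 where it was 1. For saline-LPS with saline-saline the deviations of same-numbered libraries had r = 0.287, 0.261, 0.00478 and 0.45 for replicates 1, 2, 3 and 4. Among the libraries of other groups, 9 of 16 libraries were closest to one of their own number. None of the 10 was called lower in any prenatal comparison, and none was called in the pubertal comparisons or the interaction, under any alternative run. Correlations within the Gabra6 split, without LPS-LPS replicate 3 and with replicate means removed were added after seeing the data. Scaling CPM by raw totals moved every group mean by less than 1 SD. Lyz2 and Cd68, at 141 to 505 reads, carry the most counting error.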
